A study of Mus musculus with 4 samples.

Results

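Expression of the p53 family and of the genes that feed back on p53 was examined in RNA-seq libraries of cultured muscle stem cells (satellite cells, MuSC). The 9 genes were chosen by name for their place in the p53 pathway, with earlier results of these data known. They were Trp53, Trp63 and Trp73, which encode the family members p53, p63 and p73, and the feedback regulators Mdm2, Mdm4, Rchy1, Ppm1d, Ccng1 and Trp53inp1. All 9 were among the 20065 genes of the deposited table, and 8 passed the filter on low counts that left 16153 genes for testing. The study defines its controls as carrying the Pax7CreERT2 allele and Prmt5+/loxP, so that tamoxifen (TAM) could remove only a single Prmt5 copy. Prmt5sKO MuSC carried Pax7CreERT2 and Prmt5loxP/loxP. Prmt5 encodes an arginine methyltransferase of histones and other proteins. All libraries came from limb and trunk muscles of adult C57BL/6 mice and are labelled as TAM-treated, and there were 2 control and 2 Prmt5sKO libraries. The Cre was driven from the Pax7 locus, which is active in satellite cells, and by the study's definition both groups carried it. By that definition the controls are heterozygous for floxed Prmt5. Their genotype label and the title of the study's RNA-seq results read wild type instead. The study describes the sequenced MuSC of both groups as treated with hydroxytamoxifen, the active form of TAM. The labels do not say whether the libraries of a group came from separate animals or cultures, so p-values measure only the spread between these libraries.

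p53 is a transcription factor that is kept at low levels in unstressed cells by constant degradation. Mdm2 is the ubiquitin ligase that marks p53 for destruction and is itself transcribed under p53, which closes a negative feedback loop. Mdm4 is a relative of Mdm2 that binds p53 and blocks its activation domain, and Rchy1 (Pirh2) is a further p53-induced ubiquitin ligase. Ppm1d (Wip1) is a p53-induced phosphatase that removes activating phosphates from p53 and from the kinases upstream of it, and cyclin G1 (Ccng1) recruits protein phosphatase 2A to Mdm2. Trp53inp1 works in the opposite sense, as a p53-induced nuclear protein that favours p53 phosphorylation. In muscle, p53 is known for its part in the choice of myoblasts between proliferation, arrest and differentiation.

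RefSeq promoter windows on GRCm38.p6, each running from 250 bases before to 50 bases after an annotated start, were available for 7 of the 9 members in 10 windows. They are shown because the feedback regulators are known p53 targets, and the search was for the p53 decamer, the repeated unit of the p53 response element, which reads the same on both strands. An exact decamer stood in 5 of the 10 windows, those of Mdm2, Ccng1, Trp53, Ppm1d and 1 of those of Rchy1, and in 2745 of all 32851 RefSeq windows (8.36%). The 250 bases before the start are printed on the gene's strand for Mdm2 (chr10:117710759-117711008, minus strand), Ccng1 (chr11:40755287-40755536, minus strand) and Trp53 (chr11:69580109-69580358, plus strand). For Ppm1d (chr11:85311112-85311141, plus strand) and Rchy1 (chr5:91962627-91962656, minus strand) the 30 bases around the decamer are given. Capitals mark the decamer.
Mdm2: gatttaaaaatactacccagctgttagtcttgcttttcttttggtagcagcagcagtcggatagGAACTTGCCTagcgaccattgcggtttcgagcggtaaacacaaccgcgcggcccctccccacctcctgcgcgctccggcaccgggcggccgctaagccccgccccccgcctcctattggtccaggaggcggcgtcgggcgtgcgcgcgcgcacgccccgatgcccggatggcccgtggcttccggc
Ccng1: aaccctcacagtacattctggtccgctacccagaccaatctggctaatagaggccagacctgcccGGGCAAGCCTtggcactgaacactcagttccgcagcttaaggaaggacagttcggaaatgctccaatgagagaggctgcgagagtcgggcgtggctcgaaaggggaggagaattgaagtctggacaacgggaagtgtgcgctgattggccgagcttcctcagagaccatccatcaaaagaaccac
Trp53: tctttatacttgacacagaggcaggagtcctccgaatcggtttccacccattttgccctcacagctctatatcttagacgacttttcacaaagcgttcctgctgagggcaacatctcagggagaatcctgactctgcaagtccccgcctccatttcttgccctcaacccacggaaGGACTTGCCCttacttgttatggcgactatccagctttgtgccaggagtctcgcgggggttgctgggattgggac
Ppm1d: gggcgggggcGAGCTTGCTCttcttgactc
Rchy1: cactatgacaGAGCTTGTCTcctcaaggtg

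The decamer began 186 bases before the start in Mdm2, 185 bases before it in Ccng1, 132 in Ppm1d, 90 in Rchy1 and 75 in Trp53. A fuller element, a pair of decamers at most 13 bases apart with no more than 1 letter off, stood in 359 of all windows (1.09%) and among the members only in Ccng1. There it read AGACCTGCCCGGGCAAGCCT, with 1 letter off and a gap of 0 bases, and began 195 bases before the start. No exact decamer was found in the windows of Mdm4 and Trp73 or in the other window of Rchy1. The decamer of Rchy1 lay within the gene, in an exon of a longer annotated transcript. A match of letters is a description and not a measured site, and the p53-responsive promoter inside the Mdm2 gene was outside the window.

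Counts assigned to genes totalled 13240754 to 20047430 per library, and the libraries are named here by depth as the deeper and the shallower library of their group. Prmt5 was at 2223 and 2843 normalized counts in the control libraries and at 238 and 198 in the Prmt5sKO libraries, with a log2 fold change of -3.52 (standard error 0.27). Requiring an adjusted p no higher than 0.05 (limma-voom, Benjamini-Hochberg) together with a change of 2-fold or more left 0 of all genes (0%), and 2100 genes were under 0.05 before adjustment. Even Prmt5, the deleted gene, did not pass (limma-voom adjusted p = 0.193), so a count of 0 does not show that no gene changed. The alternative limma-trend also left 0 genes, but not every alternative did. Matching libraries across the groups (a replicate block) gave 334 genes when libraries of opposite depth were matched. It gave 0 when libraries of like depth were matched, and which matching follows the replicate numbers cannot be told. The count also depended on which library was left out, as described in the last section. The satellite cell genes Pax7 and Myod1 were detected in every library, at 2514 to 3584 and 11888 to 15210 normalized counts. The summed level of 10 muscle differentiation markers was 11746 and 6384 in control libraries (deeper library first, here and throughout) and 18042 and 238094 in Prmt5sKO libraries. It was higher in both Prmt5sKO libraries, as were 8 of the 10 markers (25.2% of all genes tested were), and the shallower of these libraries stood far apart. Myog, an early differentiation factor, was at 1405 and 1163 against 3626 and 19084. Xist was at 8479 in the deeper control and 5532 in the shallower Prmt5sKO library but at 22.8 and 7.97 in the other two, so each group held a library of either kind and the libraries of a group were not repeats of the same RNA. The matching of opposite depth put together the libraries with like Xist. The summed level of 10 cycling markers was 36357 and 41887 in control and 20064 and 18365 in Prmt5sKO libraries. Of the other cell types, 6 endothelial and mural markers summed to 1867 and 294 in control and 2411 and 4137 in Prmt5sKO libraries. This was mostly through the mural gene Rgs5 at 1736 and 126 against 2316 and 4072. Myh11, also a mural gene, was low and overlapped, at 9.95 and 8.88 against 6.52 and 9.84. The endothelial genes were low as well, with Kdr at 66.3 and 58.4 against 18.8 and 16.7 and Cdh5 at 0 to 14.0. The 2 of 6 blood cell markers in the table summed to 102 and 109 against 57.3 and 70.8, lower in both Prmt5sKO libraries. This came from Cd68, at 97.3 and 109 against 53.6 and 49.2. Itgam overlapped, at 4.42 and 0 against 3.62 and 21.6. Summed levels of 7 fibroblast and fibro-adipogenic markers overlapped, at 6059 and 1898 against 3998 and 12633, mostly through the collagen gene Col1a2 at 5884 and 1621 against 3840 and 12249, while Pdgfra was at 16.7 to 43.1 and Dpt at 0 to 6.34.

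Among the 8 members tested, Mdm2, Ccng1, Rchy1 and Trp53inp1 stood above both control libraries in each Prmt5sKO library (4 of 8, against 25.2% of all genes tested). By limma-voom the same 4 genes were under 0.05 before adjustment, as were 6.03% of all genes in that direction. None of the members stood below both control libraries in each Prmt5sKO library (0 of 8, against 23.6% of all genes). None was lower with an unadjusted p under 0.05 (against 6.97%), and 0 passed the adjusted threshold in this fit, which had no replicate block. Trp53 itself, Mdm4, Ppm1d and Trp63 had overlapping groups. The exact permutation test of 2 against 2 libraries cannot go below p = 0.33, so the values of single genes rest on the fit across all genes. In such bulk libraries, a change in the share of cells that express a gene and a change in RNA per cell cannot be told apart.

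**Figure D1:**
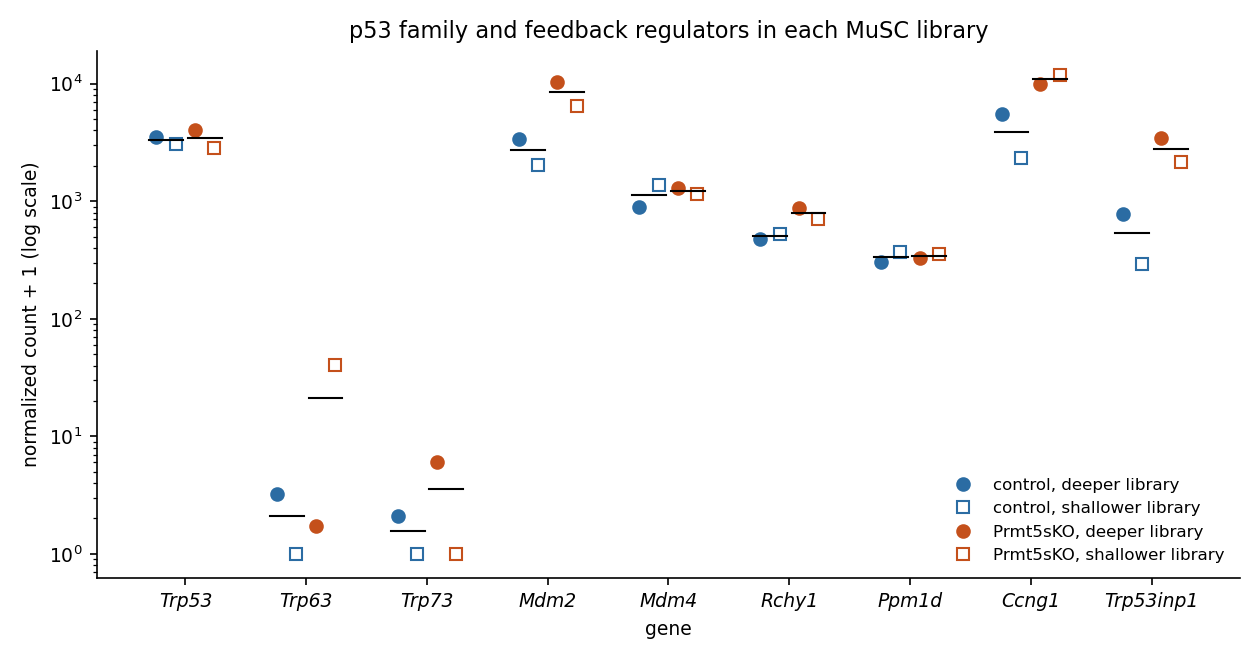
Normalized count plus 1 (log scale) of each of the 9 genes in the 4 libraries, with circles for the deeper and squares for the shallower library of each group and black bars for group means. Mdm2, Rchy1, Ccng1 and Trp53inp1 have both Prmt5sKO points above both control points, Trp53, Mdm4 and Ppm1d have mixed points, and Trp63 and Trp73 lie near the bottom apart from 39.4 for Trp63 in the shallower Prmt5sKO library.

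Trp53 (ENSMUSG00000059552; chr11:69580359-69591873, plus strand) was at 3533 and 3078 normalized counts in control and at 4068 and 2838 in Prmt5sKO. The Prmt5sKO values enclosed the control values, so the groups overlapped. Means were 3305 ± 322 in control and 3453 ± 870 in Prmt5sKO (SD, n = 2 each). The log2 fold change was 0.04 (95% confidence interval -0.57 to 0.65, limma-voom adjusted p = 0.956), an interval that leaves room for a change of up to 1.57-fold upward and down to 0.675-fold. Of the 40-base stretches of Trp53 transcripts, 6.83% also occur in other genes, chiefly the pseudogene Trp53-ps, and reads from them cannot be assigned with certainty.

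The other family members were close to absent. Trp63 (ENSMUSG00000022510; chr16:25683763-25892102, plus strand), best known as a factor of epithelial progenitors, had 2 and 0 reads in the control libraries and 1 and 40 reads in the Prmt5sKO libraries. Only the shallower Prmt5sKO library was above the floor of 3 counts, with a 95% exact Poisson interval of 28.6 to 54.5 reads that covers counting error only. It is the library with the high muscle differentiation markers, and the part of that difference in the Trp63 reads was not tested. The fit gave a log2 difference of 2.05 with a 95% confidence interval of -4.20 to 8.30 (limma-voom adjusted p = 0.742), and the groups overlapped. Trp73 (ENSMUSG00000029026; chr4:154056253-154140208, minus strand) had 1 and 0 reads in control and 7 and 0 in Prmt5sKO libraries and was not tested. Its 7 reads have a Poisson interval of 2.81 to 14.4, and 5.06% of its exon bases are shared with the opposite-strand gene Trp73os.

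Mdm2 (ENSMUSG00000020184; chr10:117688875-117710758, minus strand) was at 3382 and 2035 normalized counts in control and at 10396 and 6495 in Prmt5sKO. Even the lower Prmt5sKO value lay above the higher control value. Means were 2708 ± 952 in control and 8446 ± 2759 in Prmt5sKO (SD, n = 2 each). The log2 fold change was 1.64 (standard error 0.35), a fitted fold of 3.12 with a 95% confidence interval of 1.74 to 5.62, and the limma-voom adjusted p was 0.236. Mdm2 ranked 212 by p among the 16153 genes.

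Its relative Mdm4 (ENSMUSG00000054387; chr1:132959484-133030561, minus strand) was at 897 and 1361 normalized counts in control libraries and at 1299 and 1144 in Prmt5sKO libraries. The Prmt5sKO values fell between the control values. Its log2 fold change was 0.15 (95% confidence interval -0.50 to 0.79, limma-voom adjusted p = 0.826). Its splice forms, which differ in activity, were not analysed here because the table counts whole genes, and 10.1% of the 40-base stretches of its transcripts recur elsewhere, chiefly in Mdm4-ps, which was at 2.90 to 8.88 normalized counts.

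Rchy1 (ENSMUSG00000029397; chr5:91948904-91963068, minus strand), the other ubiquitin ligase of the group, was at 479 and 523 normalized counts in control libraries and at 880 and 707 in Prmt5sKO libraries. Both Prmt5sKO values were above both control values. Means were 501 ± 31.1 and 794 ± 122 (SD, n = 2 each). For Rchy1 the log2 fold change came to 0.66 (standard error 0.24), a fitted fold of 1.59 with a 95% confidence interval of 1.06 to 2.38, and the limma-voom adjusted p was 0.346. Of its exon bases, 680 (18.0%) are shared with Thap6 on the opposite strand, and without strand information reads from the 2 genes cannot be told apart.

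Ppm1d (ENSMUSG00000020525; chr11:85311244-85347066, plus strand), the phosphatase, was at 303 and 367 normalized counts in control libraries and at 331 and 352 in Prmt5sKO libraries. The Prmt5sKO values again fell between the control values. This gave a log2 fold change of 0.04 (95% confidence interval -0.60 to 0.67, limma-voom adjusted p = 0.964). Ppm1d thus had the narrowest spread within Prmt5sKO of the 8 members tested, with a ratio of 1.07 between the libraries.

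Ccng1 (ENSMUSG00000020326; chr11:40748552-40755311, minus strand), which encodes cyclin G1, was at 5485 and 2334 normalized counts in control libraries and at 9975 and 11909 in Prmt5sKO libraries. Both Prmt5sKO values lay above both control values, although the control libraries differed from each other by 2.35-fold. Means were 3910 ± 2228 and 10942 ± 1367 (SD, n = 2 each). The log2 fold change was 1.61 (standard error 0.42), a fitted fold of 3.05 with a 95% confidence interval of 1.50 to 6.20, and the limma-voom adjusted p was 0.276.

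Trp53inp1 (ENSMUSG00000028211; chr4:11156431-11174379, plus strand), the member that acts in favour of p53, was at 775 and 293 normalized counts in control libraries and at 3422 and 2160 in Prmt5sKO libraries. The groups did not overlap, and the control libraries differed by 2.64-fold. Means were 534 ± 341 and 2791 ± 892 (SD, n = 2 each). Trp53inp1 had the largest log2 fold change of the well-covered members, 2.48 (standard error 0.48), a fitted fold of 5.59 with a 95% confidence interval of 2.50 to 12.5, and the limma-voom adjusted p was 0.225. It ranked 136 by p among all genes tested, ahead of Mdm2 at 212, Ccng1 at 485 and Rchy1 at 1478.

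In Mdm2, Ccng1 and Trp53inp1 the control libraries were ordered alike, with the deeper library higher by 0.73, 1.23 and 1.40 on the log2 scale. Rchy1, Mdm4 and Ppm1d were lower in the deeper control library, by log2 differences of -0.13, -0.60 and -0.27. Leaving out the shallower control library brought the log2 fold changes down to 1.28 for Mdm2, 1.00 for Ccng1 and 1.81 for Trp53inp1, and leaving out the deeper control library raised them to 1.99, 2.21 and 3.19. Without the shallower Prmt5sKO library, the library with high differentiation markers, they were 1.98, 1.48 and 2.81, and that of Rchy1 was 0.82. The summed level of the cycling and blood cell markers was lower in both Prmt5sKO libraries, the latter through Cd68, and that of the differentiation markers was higher. That of the endothelial and mural markers was also higher, mostly through Rgs5. Tek was higher as well, while Pecam1, Kdr and Cdh5 were lower in both Prmt5sKO libraries and Myh11 overlapped. The part of all these markers in the higher level of the 4 genes was not tested. Mdm2, Ccng1 and Trp53inp1 kept an unadjusted p under 0.05 in limma-voom whichever library was left out. Rchy1 did not, with an unadjusted limma-voom p of 0.184 without the deeper control, 0.106 without the shallower control and 0.104 without the deeper Prmt5sKO library. The count of members under 0.05 was then 3 without either control library and 4 without either Prmt5sKO library, the fourth without the deeper one being Trp63 on the reads of a single library, and this count was added after the data were seen.

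**Figure D2:**
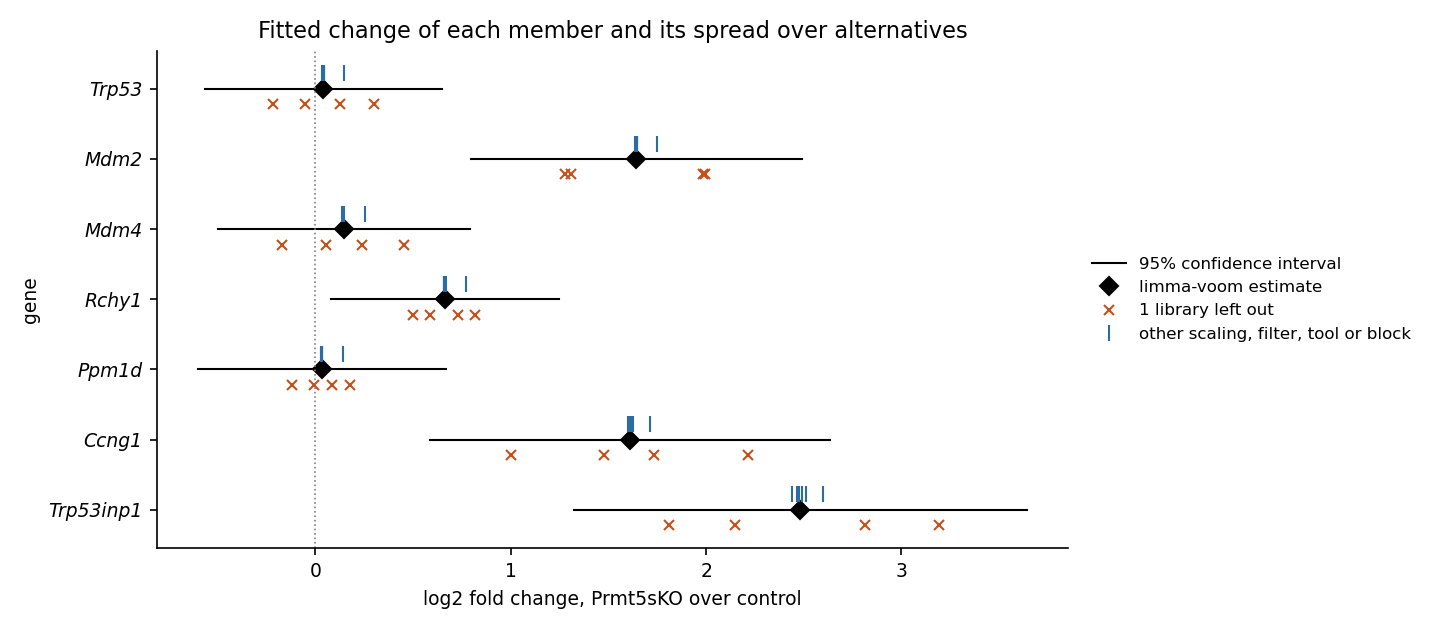
Log2 fold change (Prmt5sKO over control) of 7 members from limma-voom with 95% confidence intervals, over values with 1 library left out (crosses) and with another scaling, filter, tool or replicate block (ticks), Trp63 being left out for its interval of -4.20 to 8.30. All values for Mdm2, Rchy1, Ccng1 and Trp53inp1 lie above 0, the lowest at 0.50 for Rchy1, while those for Trp53, Mdm4 and Ppm1d lie on both sides of 0.

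The members were next ranked by level per kb of annotated exon, to set genes of different length side by side. These lengths join the exons of all annotated transcripts and may exceed any single transcript, so the ranks depend on them. In control libraries the mean normalized counts per kb were 1113 for Ccng1, 817 for Trp53, 533 for Mdm2, 133 for Rchy1, 106 for Ppm1d, 82.5 for Trp53inp1 and 76.3 for Mdm4. The ranges of Ccng1 and Trp53 overlapped, as did those of Ppm1d and Trp53inp1 and those of Trp53inp1 and Mdm4. In Prmt5sKO libraries the order was Ccng1 at 3116, Mdm2 at 1662, Trp53 at 854, Trp53inp1 at 431, Rchy1 at 210, Ppm1d at 108 and Mdm4 at 82.5, and no neighbours overlapped. Mdm2 passed Trp53 and Trp53inp1 passed Rchy1 and Ppm1d between the groups. In both groups Trp63 and Trp73 were last, at 0.0999 to 2.39 per kb.

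Ratios within a library do not depend on the scaling between libraries. Per kb, Mdm2 stood to Trp53 at 0.762 and 0.526 in the control libraries and at 2.03 and 1.82 in the Prmt5sKO libraries. The ratio was below 1 in both control libraries and above 1 in both Prmt5sKO libraries, although where 1 falls depends on the exon lengths used. Mdm2 stood to Mdm4, its partner in restraining p53, at 11.0 and 4.35 in control and at 23.3 and 16.5 in Prmt5sKO libraries. These groups did not overlap either, with a mean ratio 2.60-fold higher in Prmt5sKO. The ratio of Mdm4 to Trp53, by contrast, was 0.0694 and 0.121 in control and 0.0873 and 0.110 in Prmt5sKO libraries, and that of Ppm1d to Trp53 was 0.109 and 0.152 against 0.104 and 0.158. Both sets of values overlapped.

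Ccng1 stood to Trp53 at 1.79 and 0.874 in control and at 2.82 and 4.83 in Prmt5sKO libraries. The ratio of Trp53inp1 to Trp53 was 0.137 and 0.0595 against 0.526 and 0.476, the widest separation among the ratios to Trp53 with a mean 5.09-fold higher. Trp53inp1 was also higher relative to Mdm2, at 0.180 and 0.113 in control and 0.258 and 0.261 in Prmt5sKO libraries. The ratio of Ccng1 to Mdm2 was 2.35 and 1.66 in control and 1.39 and 2.65 in Prmt5sKO libraries, and these overlapped. Rchy1 was lower relative to Mdm2 in both Prmt5sKO libraries, at 0.114 and 0.147 against 0.191 and 0.346.

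**Figure D3:**
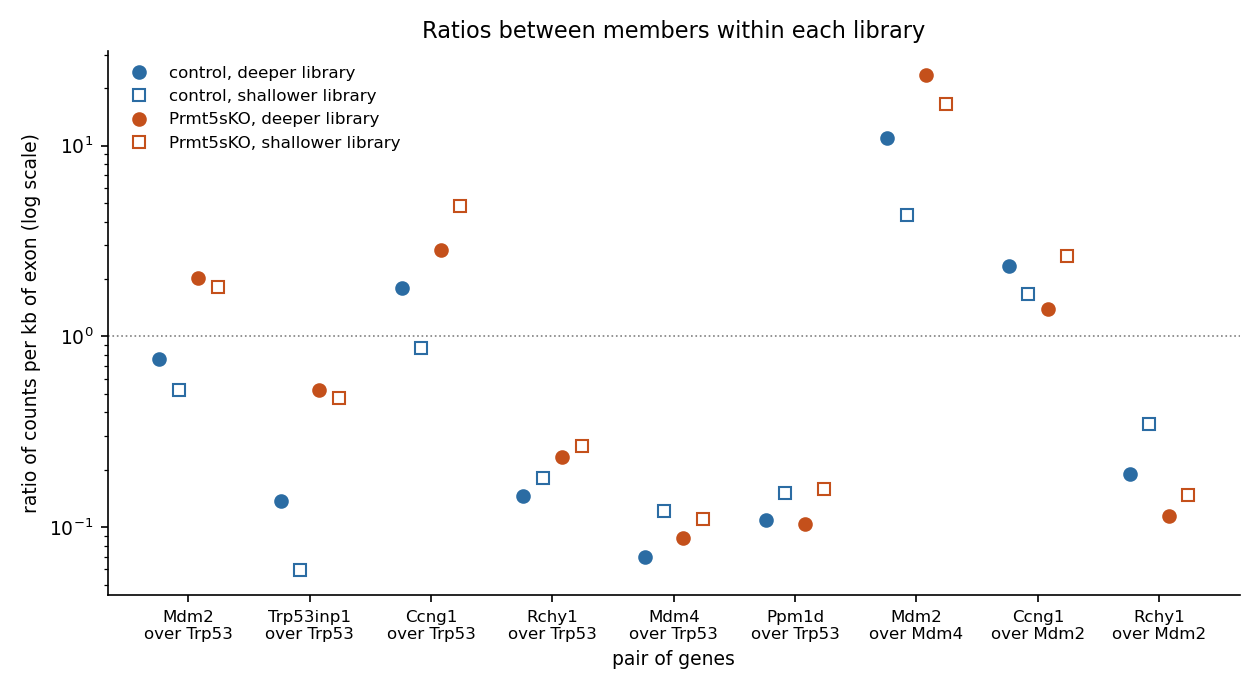
Ratio of counts per kb of exon between pairs of members (log scale) in each of the 4 libraries, with a dotted line at a ratio of 1. The ratio of Mdm2 to Trp53 crosses the line from 0.762 and 0.526 in control to 2.03 and 1.82 in Prmt5sKO libraries, and the ratios of Mdm4 and Ppm1d to Trp53 overlap between groups.

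The genes whose profile over the 4 libraries was nearest to that of a member were sought among 11461 genes by Euclidean distance of centred log2 values. For Mdm2 they were Mmp2, a matrix metalloproteinase (0.102), Itga11, a collagen-binding integrin (0.141), and Def6 (0.181). Gpx3, a secreted glutathione peroxidase, was nearest to Trp53inp1 (0.153), followed by Pmaip1, which encodes the death gene Noxa (0.290), and Tmem35a (0.369). For Ccng1 the nearest were Pih1d2 (0.136), Pnrc1 (0.148) and Hoxc13 (0.162), and for Rchy1 they were Lamp2, a lysosomal membrane protein (0.0382), Socs2, a cytokine signalling suppressor (0.0400), and Zfp954 (0.0545). Fam102b, Rbmxl1 and Prag1 were nearest to Trp53, Ccdc57, Zfp382 and Hook1 to Mdm4, and Hsph1, Lrba and Ppp2r3c to Ppm1d. Among the members themselves, Mdm2 and Ccng1 were 0.750 apart and Mdm2 and Trp53inp1 0.983, which placed Ccng1 at rank 207 and Trp53inp1 at rank 531 among the genes nearest to Mdm2. With 4 libraries, such nearness is a description of 4 values.

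The wider pathway was described by lists of genes that act on or with p53 or are its targets. These lists were also chosen with earlier results of these data known, so their counts are a description. Of 16 kinases upstream of p53, 5 lay below and 1 above both control libraries in each Prmt5sKO library (23.6% and 25.2% of all genes tested did), the median log2 fold change was -0.17 against 0.02 for all genes tested, and 2 had an unadjusted p under 0.05 in the lower direction, against 6.97% of all genes. These were Chek1, at 441 and 476 normalized counts in control and 193 and 183 in Prmt5sKO libraries, and Atm, at 1438 and 2098 against 1047 and 714. Chek1 is a checkpoint kinase of S phase that cycling cells express most, and Atm is the kinase of the double-strand break response. Prkdc, which encodes the DNA-dependent protein kinase, was the gene of this list that was higher in both libraries, at 735 and 849 against 1255 and 891.

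Of 18 other ubiquitin ligases and deubiquitinases of p53, 10 were below and 3 above both controls in each Prmt5sKO library (23.6% and 25.2% of all genes tested were). An unadjusted limma-voom p under 0.05 was found for 3, all in the lower direction, against 6.97% of all genes in that direction. Trim28, a corepressor that acts with Mdm2, was at 9380 and 9517 normalized counts in control and 5477 and 5531 in Prmt5sKO libraries. Usp7, the deubiquitinase that spares both p53 and Mdm2, was at 3031 and 3772 against 2187 and 2148, and Usp10, which deubiquitinates p53, was at 1907 and 1833 against 1127 and 1135. Mdm2 and Rchy1 thus lay on the opposite side from the median log2 fold change of this list of ligases and deubiquitinases, which was -0.24. Usp2, a deubiquitinase of Mdm2, was at 117 and 86.3 in control and at 187 and 941 in Prmt5sKO libraries, the last value being that of the library with high differentiation markers. It is named here after its values were seen.

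Of the acetyl and methyl transferases and deacetylases that act on p53, 16 of 17 were tested, with 8 below and 2 above both controls (23.6% and 25.2% of all genes tested) and a median of -0.28. Carm1, another arginine methyltransferase, was at 1915 and 1909 normalized counts in control and at 841 and 1071 in Prmt5sKO libraries. Of 15 cofactors and binding partners 4 were higher and 4 lower, close to the shares over all genes tested (25.2% and 23.6%), with a median of 0.09. Trp53bp1 was at 2106 and 2443 against 3251 and 3272, and Hmgb1, a chromatin protein, at 2291 and 3125 against 1461 and 1334.

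The genes through which Arf and ribosomal stress act on Mdm2 likewise gave 5 of 15 higher and 4 lower, near those shares, with a median of 0.22. Cdkn2a, the locus of Arf, had overlapping groups at 629 and 310 normalized counts in control and 436 and 740 in Prmt5sKO libraries, and this gene is likewise named after its values were seen. An unadjusted limma-voom p under 0.05 was found for 4 of the 15 in the lower and 1 in the higher direction, against 6.97% and 6.03% of all genes. Among the 4 lower ones were the nucleolar genes Npm1, Ncl and Gnl3. Ncl, for example, was at 17275 and 23255 in control and at 11733 and 8183 in Prmt5sKO libraries. Rps27l, a ribosomal protein gene that is itself a p53 target, was at 1527 and 1142 against 2648 and 2154. Among 37 p53 target genes outside the members, 28 lay above and 2 below both control libraries in each Prmt5sKO library (25.2% and 23.6% of all genes tested did). Of the 37, 18 had an unadjusted limma-voom p under 0.05, all in the higher direction, against 6.03% of all genes in that direction. The median log2 fold change of the list was 0.82. Cdkn1a, which encodes the cell cycle inhibitor p21, was at 3305 and 2012 in control and 8176 and 15361 in Prmt5sKO libraries, and relative to Mdm2 per kb it was at 1.40 and 1.41 against 1.13 and 3.38. None of the genes named from these lists passed the adjusted threshold in limma-voom on all 4 libraries without a replicate block.

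**Figure D4:**
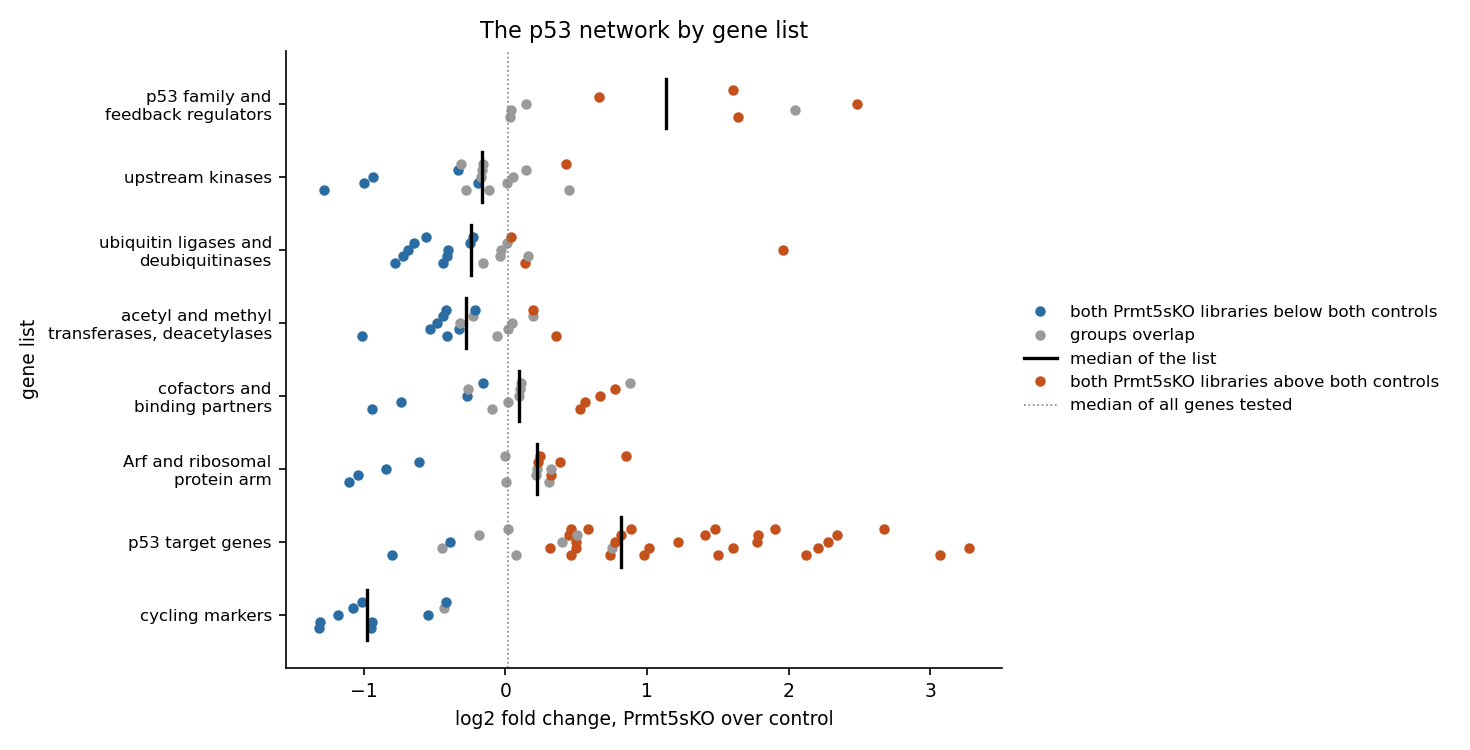
Log2 fold change (Prmt5sKO over control) of each tested gene of 8 lists, coloured by whether both Prmt5sKO libraries lie above both control libraries, below them, or overlap, with a black bar for the median of each list and a dotted line for the median of all genes tested (0.02). The medians are 1.14 for the members (8 genes, Trp63 included), 0.82 for p53 target genes and between -0.28 and 0.22 for the 5 other p53 lists, against -0.98 for the cycling markers. Trp63 passed the filter through the reads of a single Prmt5sKO library. Without it the middle value of the members is that of Rchy1, 0.66, which is below the median of the p53 target genes.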

How the data were processed

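RNA of 4 cultured MuSC samples was depleted of ribosomal RNA and sequenced on an Ion Torrent Proton. The authors aligned the reads with STAR 2.4.0a to GRCm38 (mm10) and counted them per Ensembl gene, and the deposited signal is each group's mean of counts divided by the size factors of the authors' DESeq2 1.62. The table also holds the authors' own fold changes and p-values, which were not used. Because each mean combines multiples of 2 step sizes, whole reads of both libraries could be recovered for 100% of the 20065 genes in either group, with a relative residual of at most 6.02e-15. No column names a replicate, and the libraries are named by depth.

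The recovered reads were analysed with limma-voom, and no negative binomial model was run. Libraries were scaled by TMM factors (trims of 30% and 5%), genes averaging under 5 normalized counts were left out, and the rest were tested (limma 3.58.1, R 4.3.3) with Benjamini-Hochberg adjustment. The steps were tested on simulated data with a set spread between libraries. That spread was not taken from these libraries, so the test does not show how many changed genes the fit would find here. Normalized counts are counts scaled to the geometric mean effective library size. Exon lengths are unions over GENCODE M21 transcripts, which may exceed any single transcript, and 19782 identifiers had a symbol. Whether counting used strand is not given in the sources used here. Members and lists were chosen with earlier results of these data known. Of each pathway list, the genes named are from the 4 with the smallest p among those whose groups do not overlap, and for each member with a mean of at least 50 in both groups the 3 genes with the nearest profile of log2(normalized count + 1) were named. Alternatives were scaling by library size or by median of ratios, no filter, limma-trend, each library left out, and both pairings as a replicate block.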

Additional observations from a re-analysis of the deposited data

How the results depend on the processing

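Over 10 alternatives the log2 fold changes kept their direction for Mdm2 (1.28 to 1.99), Ccng1 (1.00 to 2.21), Trp53inp1 (1.81 to 3.19) and Rchy1 (0.50 to 0.82). Near 0, the sign turned when a library was left out: Trp53 ranged from -0.22 to 0.30, Mdm4 from -0.17 to 0.45 and Ppm1d from -0.12 to 0.18, with -0.05 for Trp53 without the shallower control and -0.01 for Ppm1d without the shallower Prmt5sKO library. Trp53inp1 passed the adjusted threshold without the deeper Prmt5sKO library (limma-voom adjusted p = 0.0490), as did Cdkn1a (0.00745) and Prmt5 (0.00327). Genes called over the whole table ranged from 0 to 480 when a library was left out, the highest without the deeper Prmt5sKO library and 54 without the shallower one. In those fits the lone library of a group is assumed to vary like the others. Pairing deeper with deeper as a replicate block gave 0 genes, with Rchy1 at an unadjusted limma-voom p of 0.0588, and pairing the deeper library of a group with the shallower of the other gave 334, where Ccng1 (limma-voom adjusted p = 0.0348), Trp53inp1 (0.0384), Cdkn1a (0.0200) and Prmt5 (0.0129) passed. Prmt5 also passed without the shallower Prmt5sKO library (limma-voom adjusted p = 0.0198). The labels carry replicate numbers but the columns do not, and the differences between libraries correlated at -0.24 and 0.24 across genes under these pairings. The pairing at 0.24 puts together the libraries with like Xist, and which pairing follows the replicate numbers cannot be told. Scaling by library size moved the median of all genes to 0.13 and the split at an unadjusted p under 0.05 from 974 higher and 1126 lower to 1362 and 764. With 2 libraries a group, a change of Trp53, Mdm4 or Ppm1d within the intervals given was not detectable.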
